A study of Mus musculus with 12 samples.

Results

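The mouse genes Cd3e, Cd3d, Cd3g, Cd4, Cd8a, Lck, Nkg7, Gzma, Ccl5 and Il2rb are markers of T cells and natural killer (NK) cells, and they are described here in sorted bone endothelial cells (BECs). They were chosen by name as a T and NK cell set, with earlier results of these data known. All 10 symbols matched 1 gene each among the 37620 genes of the count table. RNA from BECs of c57/Bl6 mice, an inbred strain, was sequenced in 12 libraries with paired reads of 100 nt. The groups were females at 2 weeks, males at 2 weeks, females at 65 weeks and males at 65 weeks, with 3 libraries each. No group carried a transgene or a treatment per the labels. The cells were taken fresh from tibia and sorted on endomucin, a surface sialomucin of bone capillaries, so any T or NK cell in a library would have passed that sort, and how many such cells did so was not measured. Per the methods of the study, the best samples of each set by RNA quality were sequenced. The sources give 3 samples a group without saying which animals each came from, so p-values measure the spread between these libraries, which may be technical in part.

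T cells recognise antigen through a receptor whose variable chains are held at the surface by the CD3 chains, encoded by Cd3e, Cd3d and Cd3g. The co-receptors Cd4 and Cd8a bind the antigen-presenting molecule and bring the kinase Lck to the CD3 chains, which it phosphorylates. NK cells lack that receptor but share with cytotoxic T cells a set of granule genes such as Nkg7 and Gzma, the chemokine Ccl5 and the interleukin receptor chain Il2rb. Both cell types are resident in bone marrow, which surrounds the capillaries the sort was aimed at.

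Libraries held 35012947 to 44569600 counts at 2 weeks and 26044743 to 34088694 at 65 weeks. Levels are given as CPM, counts scaled to the total of their library. Endothelial RNA was present at 2 weeks and far lower at 65 weeks. Emcn, which encodes endomucin, was at 146, 181 and 115 CPM in 2-week females and at 5.23, 6.98 and 2.798 in 65-week females. In males it was at 209.7, 154 and 227 at 2 weeks and at 6.51, 4.59 and 5.798 at 65 weeks. Summed over 8 endothelial markers the level ranged from 1645 to 2835 CPM in 2-week females and 2410.0 to 3074 in 2-week males to 151 to 195 and 97.6 to 129.7 at 65 weeks, and 8 of 8 fell in either sex. The 2-week libraries also held much RNA of other cells. Their summed level over 8 neutrophil markers was higher, at 4938 to 6156 CPM in females and 3925 to 4217 in males. The pan-leukocyte gene Ptprc, which encodes CD45, was at 201, 162 and 174 CPM in 2-week females and 612, 658 and 674 in 65-week females, and at 145, 149 and 144 and 529, 482 and 685 in males. Of 5 pan-leukocyte markers 5 rose in either sex, so each age difference described for the T and NK cell genes ran beside a rise in leukocyte RNA and a fall in endothelial RNA, whose part in it was not tested. In bulk RNA, more or fewer cells of a type and more or less RNA per cell cannot be told apart. Male 65-week replicate 3 stood apart in B cell genes, with a summed level of 1571 CPM against 498 and 388 in the other males of that age, and male 65-week replicate 2 stood apart in the granulocyte precursor genes Mpo and Elane, at 934 and 390.0 CPM. Where leaving out 1 of these libraries changed the call of a gene named here between ages, or moved a called value by over 1.5 times, the value without it is given with the gene.

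Between 2 and 65 weeks 8 of the 10 genes rose in females, Gzma fell and Lck was not called, and in males 8 rose while Gzma and Lck fell. These counts are by edgeR at an adjusted p under 0.05. Among all genes tested 30.2% rose and 29.5% fell in females (15120 genes), and 27.0% rose and 28.5% fell in males (14959 genes). The set was chosen with earlier results of these data known, so its counts beside these shares are a description. The median log2 fold change (65 over 2 weeks) of the 10 genes was 1.56 in females and 1.66 in males, beside 0.01 for all genes tested in either sex. All 10 genes passed the filter on low counts in every comparison. With libraries scaled by their totals only, 3668 genes rose and 5451 fell in females, 3304 rose and 4865 fell in males, and the median of all genes shifted to -0.13 and -0.11 on the log2 scale, but the counts of T and NK cell genes stayed at 8 rising in females and 8 in males.

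**Figure D1:**
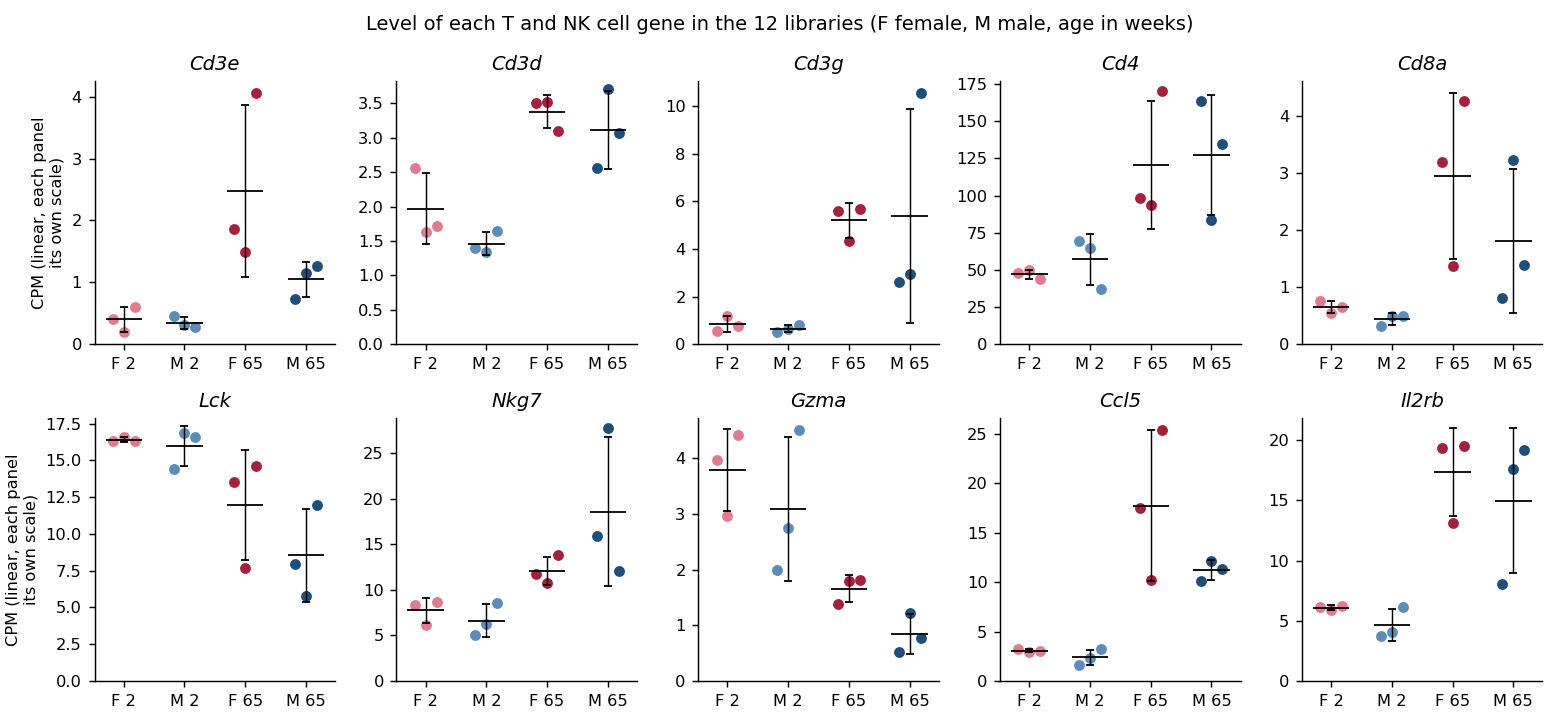
Level of each T and NK cell gene in CPM (counts scaled to the library total, linear axis from 0, a separate scale for each gene) in females (F) and males (M) at 2 and 65 weeks. Points are single libraries, horizontal bars are means and vertical bars are 1 SD (n = 3). For every gene the libraries of the 2 ages do not overlap within a sex, and only Lck and Gzma sit lower at 65 weeks. Of all genes tested 59.7% in females and 55.5% in males were called between ages, and how many had no overlap was not counted.

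Among the CD3 chains, Cd3e encodes the epsilon chain, which every T cell receptor complex carries and which pairs with either of the other chains. In 2-week females Cd3e was at 0.408, 0.1999 and 0.601 CPM, from 15, 7 and 23 counts, and in 65-week females at 1.86, 1.496 and 4.06 CPM, from 54, 51 and 119 counts. In 2-week males it was at 0.449, 0.311 and 0.275 CPM, from 20, 13 and 10 counts, and in 65-week males at 0.732, 1.15 and 1.27 CPM, from 20, 31 and 33 counts. The ages were separate in both sexes, although the lowest 65-week male library held no more counts than the highest 2-week male library before scaling to depth. Cd3e rose 6.58-fold in females (log2 fold change 2.72, SE 0.54, adjusted p = 0.00287) and 3.23-fold in males (log2 fold change 1.69, SE 0.39, adjusted p = 0.00763). Female 65-week replicate 3 was the highest library, and the female log2 fold change was 2.16 without it (adjusted p = 0.00558).

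Cd3d encodes the delta chain, which pairs with epsilon in the receptor. Its level was 2.56, 1.63 and 1.72 CPM in 2-week females and 3.51, 3.52 and 3.105 CPM in 65-week females. The corresponding male libraries were at 1.39, 1.34 and 1.65 CPM and at 2.56, 3.704 and 3.07 CPM. The spread at 65 weeks was narrow in females, and the ages did not overlap in either sex. Cd3d rose 1.88-fold in females (log2 fold change 0.91, SE 0.25, adjusted p = 0.0147) and 2.31-fold in males (log2 fold change 1.21, SE 0.25, adjusted p = 0.00491). The female call was lost without 2-week replicate 2 (adjusted p = 0.0708) or without 2-week replicate 3 (adjusted p = 0.0717), which leave female 2-week replicate 1, the highest of its group, in the comparison.

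Cd3g encodes the gamma chain, the alternative partner of epsilon. It was at 0.572, 1.200 and 0.757 CPM in 2-week females, from 21, 42 and 29 counts, and at 5.61, 4.34 and 5.66 CPM in 65-week females, from 163, 148 and 166 counts. In males it was at 0.516, 0.646 and 0.798 CPM at 2 weeks and 2.598, 2.96 and 10.6 CPM at 65 weeks. Male 65-week replicate 3, the library high in B cell genes, held 275 Cd3g counts, more than any other library, whereas its Cd3e level lay within the range of the other 65-week libraries. Cd3g rose 6.78-fold in females (log2 fold change 2.76, SE 0.30, adjusted p = 0.000118) and 8.73-fold in males (log2 fold change 3.13, SE 0.57, adjusted p = 0.00255). Without male 65-week replicate 3 the male log2 fold change was 2.21 (adjusted p = 0.000587). Summed, the CD3 genes were at 3.22 ± 0.281 CPM in 2-week females and 11.1 ± 1.74 in 65-week females, and at 2.46 ± 0.232 and 9.54 ± 4.74 in males (SD, n = 3).

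The CD3 genes lie side by side on chromosome 9 (GRCm39), with Cd3g (ENSMUSG00000002033) at chr9:44880870-44891735 on the minus strand, Cd3d (ENSMUSG00000032094) at chr9:44893083-44899173 on the plus strand and Cd3e (ENSMUSG00000032093) at chr9:44910037-44920925 on the minus strand. Cd3g and Cd3d are divergent, with 1347 bases between their annotated ends, and 10863 bases separate Cd3d from Cd3e. The 3 neighbours all rose, by unequal folds, and whether they share control was not tested. The 250 bases before each start are shown from RefSeq (GRCm38.p6, chr9:44980432-44980681 minus strand, chr9:44981536-44981785 plus strand, chr9:45009612-45009861 minus strand), 5′ to 3′ on the strand of the gene. Capitals mark matches, on either strand, to the E-box letters CAGGTG, the TCF/LEF letters CTTTGA, the ETS letters AGGAAG, the RUNX letters TGTGGT or the T-box letters GGTGTGA. No match overlapped another.
Cd3g: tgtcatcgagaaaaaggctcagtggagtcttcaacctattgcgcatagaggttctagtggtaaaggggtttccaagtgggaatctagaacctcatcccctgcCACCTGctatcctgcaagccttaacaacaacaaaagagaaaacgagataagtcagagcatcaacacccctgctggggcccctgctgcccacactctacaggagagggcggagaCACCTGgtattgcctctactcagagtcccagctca
Cd3d: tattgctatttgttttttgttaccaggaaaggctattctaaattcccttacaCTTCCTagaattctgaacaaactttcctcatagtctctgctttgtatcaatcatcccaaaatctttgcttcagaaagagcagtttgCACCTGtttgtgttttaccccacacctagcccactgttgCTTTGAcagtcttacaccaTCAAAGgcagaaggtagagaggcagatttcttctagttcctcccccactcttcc
Cd3e: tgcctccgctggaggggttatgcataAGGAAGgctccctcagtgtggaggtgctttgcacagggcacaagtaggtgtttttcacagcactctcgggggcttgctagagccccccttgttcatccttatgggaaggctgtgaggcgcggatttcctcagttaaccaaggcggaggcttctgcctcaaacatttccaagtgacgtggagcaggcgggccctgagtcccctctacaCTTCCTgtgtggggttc
Cd3g held the E-box letters at 2 places. Cd3d held the E-box letters once, the TCF/LEF letters at 2 places and the ETS letters once, and Cd3e held only the ETS letters, at 2 places. Of all 32851 such windows 17.2% held the E-box letters, 13.8% the TCF/LEF letters, 29.5% the ETS letters, 14.0% the RUNX letters and 3.33% the T-box letters on either strand, so each match is a description of the sequence and not of a binding site.

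The co-receptors differed widely in level. Cd4 (ENSMUSG00000023274, chr6:124841655-124874758, minus strand, GRCm39) marks helper T cells and is also carried by some dendritic cells and macrophages, and per length of exon it was the most abundant of the 10 genes. Its level was 47.6, 49.9 and 43.9 CPM in 2-week females and 98.2, 93.9 and 170.4 CPM in 65-week females. Male libraries were at 69.2, 64.8 and 37.4 CPM at 2 weeks and 163, 83.5 and 134 CPM at 65 weeks. Every 65-week library stood above every 2-week library of its sex, with 1 male library of each age, 65-week replicate 2 and 2-week replicate 1, closest to the other age. Cd4 rose 2.81-fold in females (log2 fold change 1.49, SE 0.22, adjusted p = 0.000563) and 2.41-fold in males (log2 fold change 1.27, SE 0.30, adjusted p = 0.00878). Of 8 monocyte and macrophage markers 8 rose in females and 6 in males, with a summed level of 3048 to 3864 CPM in 2-week females, 6496 to 9053 in 65-week females, 3195 to 3501 in 2-week males and 6899 to 8179 in 65-week males, and their part in the Cd4 level was not tested.

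Cd8a (ENSMUSG00000053977, chr6:71350411-71356157, plus strand) encodes the alpha chain of the co-receptor of cytotoxic T cells. It was at 0.762, 0.543 and 0.653 CPM in 2-week females, from 28, 19 and 25 counts, and at 3.201, 1.38 and 4.26 CPM in 65-week females, from 93, 47 and 125 counts. Males were at 0.314, 0.503 and 0.495 CPM at 2 weeks, from 14, 21 and 18 counts, and at 0.805, 3.22 and 1.38 CPM at 65 weeks, from 22, 87 and 36 counts. The ages were separate within each sex, while the 65-week libraries of a sex differed among themselves by more than 3-fold. Cd8a rose 4.900-fold in females (log2 fold change 2.29, SE 0.44, adjusted p = 0.00258) and 4.46-fold in males (log2 fold change 2.16, SE 0.56, adjusted p = 0.0124). The male value was 1.41 without 65-week replicate 2 (adjusted p = 0.0215), and the male call was lost without 2-week replicate 1 (adjusted p = 0.0552). Cd8b1, which encodes the beta chain that completes the receptor on T cells, rose by 2.78 on the log2 scale in females (adjusted p = 0.00246) and by 2.39 in males (adjusted p = 0.00118), from 16, 18 and 14 counts in 2-week females to 94, 34 and 120 in 65-week females and from 17, 16 and 8 to 38, 53 and 39 in males.

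Lck (ENSMUSG00000000409, chr4:129442137-129467434, minus strand), the kinase that phosphorylates the CD3 chains, did not rise with the chains it acts on. In females it was at 16.3, 16.6 and 16.3 CPM at 2 weeks and 13.5, 7.66 and 14.6 CPM at 65 weeks. In males it was at 14.4, 16.9 and 16.6 CPM at 2 weeks and 7.94, 5.74 and 11.9 CPM at 65 weeks. The 2-week females lay close together, and every 65-week library was below every 2-week library of its sex. By the test across all genes the female difference was not called (log2 fold change -0.33, SE 0.22, adjusted p = 0.226, 95% interval -0.83 to 0.17), and Lck fell in males (log2 fold change -0.79, SE 0.24, adjusted p = 0.0226). The male call was lost without 2-week replicate 2 (adjusted p = 0.0717), without 2-week replicate 3 (adjusted p = 0.0676) or without 65-week replicate 1 (adjusted p = 0.0786), so that 1 of the 10 genes was then called lower in males in place of 2. Markers of megakaryocytes and platelets fell with it, 6 of 6 in either sex, with a summed level of 1669 to 2000.0 CPM in 2-week females, 158 to 289 in 65-week females, 1524 to 2577 in 2-week males and 95.6 to 323 in 65-week males, and the part of such cells or of endothelial cells in the Lck level was not tested.

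The cytotoxic genes Nkg7 and Gzma moved in opposite directions. Nkg7 (ENSMUSG00000004612, chr7:43086497-43087678, plus strand), a membrane protein of cytotoxic granules, was at 8.39, 6.17 and 8.67 CPM in 2-week females and 11.7, 10.8 and 13.8 CPM in 65-week females. Its male levels were 5.03, 6.22 and 8.61 CPM at 2 weeks and 15.9, 27.8 and 12.1 CPM at 65 weeks. No library of 1 age overlapped the other within a sex, and the highest, male 65-week replicate 2, was the library with the highest Mpo and Elane. Nkg7 rose 1.71-fold in females (log2 fold change 0.77, SE 0.18, adjusted p = 0.00649) and 3.07-fold in males (log2 fold change 1.62, SE 0.34, adjusted p = 0.00515). Without male 65-week replicate 2 the male log2 fold change was 1.20 (adjusted p = 0.00722). Neutrophil markers rose beside it, 7 of 8 in females and 8 of 8 in males, with a summed level of 4938 to 6156 CPM in 2-week females, 11676 to 15530.0 in 65-week females, 3925 to 4217 in 2-week males and 17193 to 25436 in 65-week males, and their part in the Nkg7 level was not tested.

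Gzma (ENSMUSG00000023132, chr13:113230355-113237524, minus strand) encodes granzyme A, a protease released from those granules. It was at 3.98, 2.97 and 4.41 CPM in 2-week females, from 146, 104 and 169 counts, and at 1.38, 1.79 and 1.81 CPM in 65-week females, from 40, 61 and 53 counts. In males it was at 1.997, 2.75 and 4.51 CPM at 2 weeks, from 89, 115 and 164 counts, and at 0.512, 1.22 and 0.768 CPM at 65 weeks, from 14, 33 and 20 counts. All 65-week libraries were below all 2-week libraries, across the sexes as well as within them. Gzma fell in females (log2 fold change -1.06, SE 0.26, adjusted p = 0.00808) and in males (log2 fold change -1.76, SE 0.43, adjusted p = 0.0101), to 0.4804 and 0.295 of the 2-week level in the fits. Prf1, the pore-forming partner of granzymes, rose instead, by 1.94 on the log2 scale in females (adjusted p = 0.000999) and 1.48 in males (adjusted p = 0.0187), where the call was lost without 2-week replicate 1 (adjusted p = 0.0799) or 3 (adjusted p = 0.0565). Gzmb, the other major granzyme, was at 26, 21 and 36 counts in 2-week females and 11, 34 and 20 in 65-week females, with a log2 fold change of 0.01 (SE 0.44, adjusted p = 0.981), and at 8, 16 and 18 and 4, 4 and 0 counts in males, where it did not pass the filter on low counts.

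The windows before Nkg7 (chr7:43436888-43437137, plus strand) and Gzma (chr13:113100982-113101231, minus strand) are shown because both genes encode proteins of cytotoxic granules and moved apart, with the same motifs in capitals (RefSeq, GRCm38.p6). Whether their RNA came from the same cells was not measured.
Nkg7: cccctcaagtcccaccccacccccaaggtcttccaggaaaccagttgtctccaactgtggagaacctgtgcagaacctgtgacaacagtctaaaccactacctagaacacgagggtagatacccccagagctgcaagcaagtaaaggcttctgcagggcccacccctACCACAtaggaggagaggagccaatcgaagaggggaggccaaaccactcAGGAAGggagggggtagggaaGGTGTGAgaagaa
Gzma: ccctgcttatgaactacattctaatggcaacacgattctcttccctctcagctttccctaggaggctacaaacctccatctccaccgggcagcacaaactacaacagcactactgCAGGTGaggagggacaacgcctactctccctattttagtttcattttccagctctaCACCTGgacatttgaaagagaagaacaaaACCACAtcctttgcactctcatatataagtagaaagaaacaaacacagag
Nkg7 held the T-box letters, starting 13 bases before the start, as well as the RUNX and ETS letters once each. Gzma held the E-box letters at 2 places and the RUNX letters once, and no T-box or ETS letters in this window. The windows of Cd8a and Lck were read too but are not shown. That of Cd8a, which rose in both sexes, held no match, and those of Lck held E-box, RUNX and ETS letters. Tbx21, the T-box factor of effector T and NK cells, rose by 3.64 on the log2 scale in females (adjusted p = 1.19e-05) and 4.32 in males (adjusted p = 0.00645), from 0.926, 0.685 and 0.522 CPM in 2-week females to 8.37, 7.19 and 8.73 in 65-week females and from 0.269, 0.335 and 0.688 to 1.94, 2.74 and 19.6 in males. The highest of these was again male 65-week replicate 3, without which Tbx21 rose by 2.58 in males (adjusted p = 0.00159). The Nkg7 level of that library was the lowest of the 65-week males. Whether Tbx21 acts on Nkg7 or Gzma in these cells was not tested.

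Ccl5 (ENSMUSG00000035042, chr11:83416602-83425942, minus strand), a chemokine released by effector T and NK cells, was at 3.24, 2.88 and 3.06 CPM in 2-week females and 17.5, 10.2 and 25.4 CPM in 65-week females. Males were at 1.64, 2.298 and 3.19 CPM at 2 weeks and 10.1, 12.1 and 11.4 CPM at 65 weeks. The lowest 65-week library of either sex was more than 3 times the highest 2-week library. Ccl5 rose 6.33-fold in females (log2 fold change 2.66, SE 0.31, adjusted p = 0.000185) and 5.12-fold in males (log2 fold change 2.36, SE 0.25, adjusted p = 0.000166), and the adjusted p stayed at or below 0.00187 under all 13 alternatives in males and at or below 0.00118 under all 13 in females. Of its receptors, Ccr1 rose by 0.73 and Ccr3 by 0.74 on the log2 scale in females (adjusted p = 0.00954 and 0.000688). In males Ccr1 rose by 1.55 (adjusted p = 3.36e-05), and Ccr3 was not called (log2 fold change 0.49, adjusted p = 0.133).

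Il2rb (ENSMUSG00000068227, chr15:78363456-78395566, minus strand) encodes the beta chain shared by the receptors for interleukin 2 and interleukin 15, the cytokine on which NK cells depend. Its level was 6.15, 5.88 and 6.24 CPM in 2-week females and 19.4, 13.1 and 19.5 CPM in 65-week females. Males were at 3.702, 4.09 and 6.17 CPM at 2 weeks and 8.05, 17.6 and 19.2 CPM at 65 weeks, and the ages were separate in both sexes. Il2rb rose 3.11-fold in females (log2 fold change 1.64, SE 0.17, adjusted p = 9.79e-05) and 3.46-fold in males (log2 fold change 1.79, SE 0.34, adjusted p = 0.00287). Of its partner chains, Il2rg, the common gamma chain, rose in females (log2 fold change 1.02, SE 0.12, adjusted p = 0.0001497) and was not called in males (log2 fold change 0.22, SE 0.21, adjusted p = 0.403). The alpha chains Il2ra and Il15ra were not called in either sex (log2 fold changes 0.71 and 0.38 in females, 1.01 and -0.49 in males), nor was the ligand Il15 (0.08 and -0.11). Leaving out 1 library brought a call for Il15ra in females (0.58 without 65-week replicate 1, adjusted p = 0.0303) and for Il2ra in females (0.98 without 65-week replicate 3, adjusted p = 0.0361) and males (1.27 without 65-week replicate 1, adjusted p = 0.0261). Jak3, the kinase bound to the gamma chain, fell by 0.67 in females (adjusted p = 0.00189) and by 1.03 in males (adjusted p = 0.00468).

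**Figure D2:**
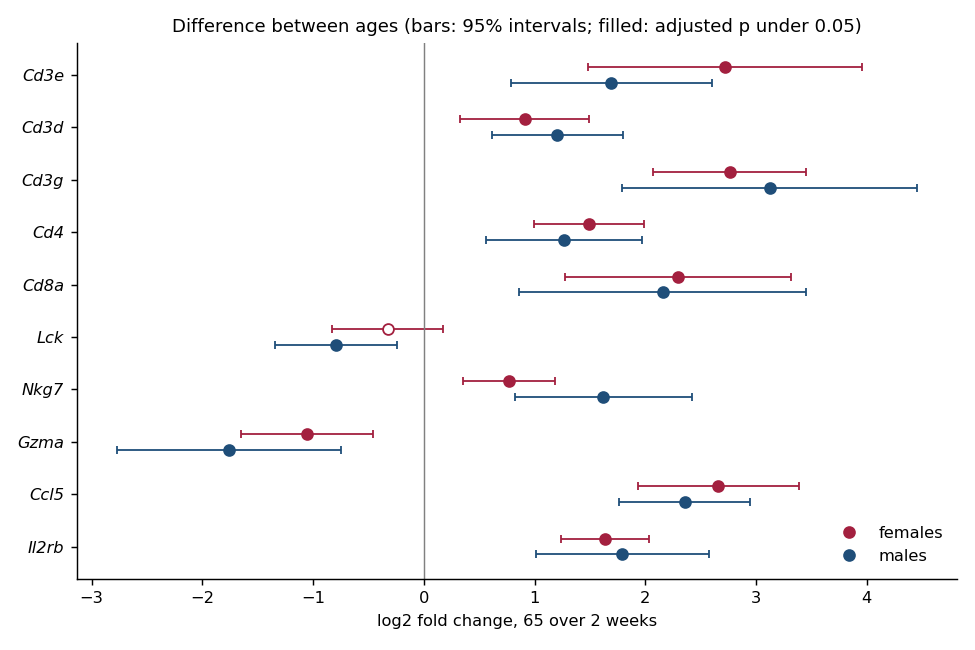
Log2 fold change of each gene between ages (65 over 2 weeks, horizontal axis) in females and males by edgeR, with 95% intervals from the t quantile. Filled points were called at an adjusted p under 0.05. The intervals lie above 0 for 8 genes in both sexes and below 0 for Gzma in both and for Lck in males, while that of Lck in females covers 0.

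Between the sexes no T or NK cell gene was called at either age by edgeR. At 2 weeks 0 of 10 were called, beside 0.0332% of all genes tested (5 of 15081: Xist, Kdm5d, Uty, Ddx3y and Eif2s3y, all on the sex chromosomes). At an unadjusted p under 0.05 the count at 2 weeks was 0 of 10 and 2683 of all genes, and DESeq2 also called 0 of the 10 beside 447 of all genes. Male over female, the largest differences at 2 weeks were Cd8a at -0.60 on the log2 scale (95% interval -1.26 to 0.05, adjusted p = 0.303), for which every male library was below every female library, and Cd3d at -0.45 (-0.96 to 0.05, adjusted p = 0.313). The narrowest interval was that of Lck, -0.27 to 0.15 around -0.06. For 4 of the 10 genes the interval at 2 weeks reached a 2-fold difference in at least 1 direction. The median of the 10 genes was -0.36 on the log2 scale, beside 0.01 for all genes tested. The missed calls at 2 weeks thus do not show that the sexes were alike.

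At 65 weeks 0 of 10 were called, beside 0.0420% of all genes tested (6 of 14287). An unadjusted p under 0.05 was reached by 2 of the 10, Cd3e and Ccl5, and by 1479 of all genes, and DESeq2 called 0 of the 10 beside 399 of all genes. Cd3e, lower in all 3 males than in any female, had a log2 fold change of -1.25 (95% interval -2.33 to -0.18, adjusted p = 0.405). Gzma was likewise lower in every male, at -1.004 (-2.02 to 0.01, adjusted p = 0.485). Ccl5 was at -0.67 (-1.35 to -0.001, adjusted p = 0.482), with overlapping libraries. Nkg7 had the largest value above 0, at 0.62 (-0.06 to 1.30, adjusted p = 0.539), and 0.21 without male replicate 2. Cd3g was even between the sexes in the fit, but its 95% interval ran from -1.12 to 1.12 on the log2 scale, and without male replicate 3 its value was -0.89 (adjusted p = 0.0979). Leaving out male 65-week replicate 3 took the genes called between the sexes at that age from 6 to 830, and those called in the interaction from 1 to 750, none of them among the 10. The median of the 10 genes at 65 weeks was -0.37 on the log2 scale, beside -0.002 for all genes tested. The intervals at 65 weeks reach a 2-fold difference in at least 1 direction for 7 of the 10 genes, so these missed calls do not show that the sexes were alike.

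**Figure D3:**
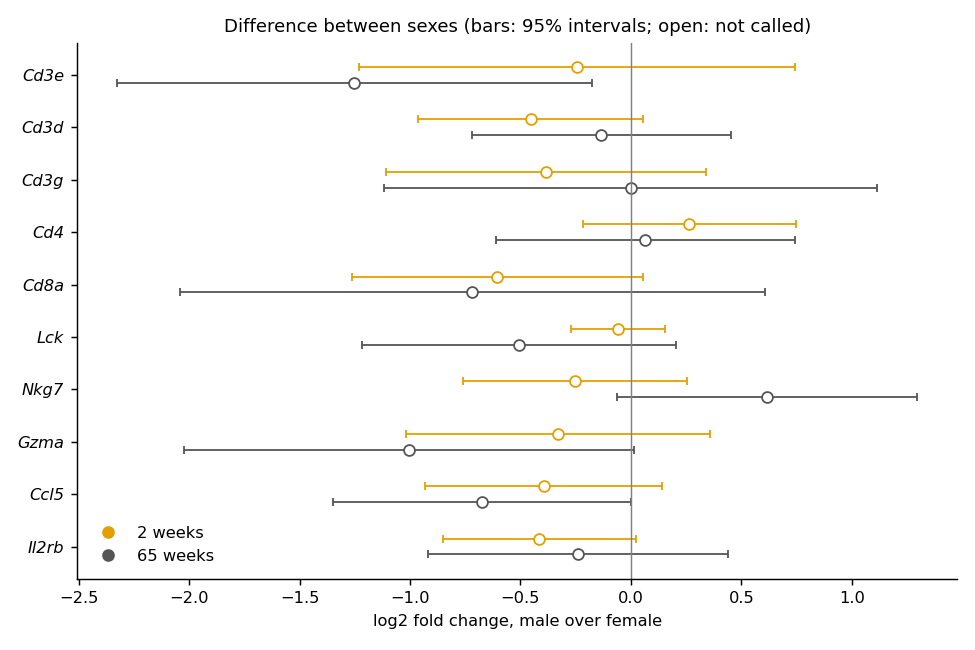
Log2 fold change of each gene between sexes (male over female, horizontal axis) at 2 and 65 weeks by edgeR, with 95% intervals. Open points were not called at an adjusted p under 0.05. All points are open, and at 65 weeks the intervals of Cd3e and Ccl5 lie below 0 before adjustment over all genes.

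The difference of the age effects between the sexes was tested as an interaction on all 12 libraries, in which 0 of 10 genes were called by edgeR, beside 0.00635% of all genes tested (1 of 15747, Prg4, which encodes a lubricant of joint surfaces). No T or NK cell gene reached an unadjusted p under 0.05, against 1880 of all genes, and DESeq2 called 0 of the 10 and 394 of all genes. The largest values were Cd3e at -1.03 (95% interval -2.53 to 0.46, adjusted p = 0.579) and Nkg7 at 0.84 (-0.05 to 1.74, adjusted p = 0.444), the first meaning a smaller rise and the second a larger rise in males. A difference between the sexes in the age effect of Lck, called in males only, was not detected either (-0.47, -1.22 to 0.29, adjusted p = 0.616).

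Levels were compared between genes after division by the annotated exon length (RPKM, the CPM per kilobase of exon). The lengths are from GENCODE M39, which is not the annotation that was counted, so these levels are approximate. Whether reads were counted by strand is not stated, and Cd3e and Il2rb share 135 and 376 exon bases with long noncoding genes on the opposite strand. Cd4 was highest in every group, at 10.5 ± 0.683 RPKM in 2-week females, 12.7 ± 3.83 in 2-week males, 26.9 ± 9.56 in 65-week females and 28.3 ± 9.0 in 65-week males (SD, n = 3), and Cd3e was lowest in every group, at 0.0988 ± 0.0491, 0.0846 ± 0.0224, 0.606 ± 0.3400 and 0.257 ± 0.0689 RPKM. In 2-week females the order was Cd4, Nkg7, Lck, Ccl5, Gzma, Il2rb, Cd3d, Cd3g, Cd8a and Cd3e, and the libraries of neighbours overlapped only between Ccl5 and Gzma and between Cd3g and Cd8a. The 2-week males had the same order, with overlap between Cd4 and Nkg7, between Ccl5 and Gzma, between Gzma and Il2rb and between Cd8a and Cd3e.

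At 65 weeks the order had changed in both sexes. In females it ran Cd4, Ccl5, Nkg7, Il2rb, Lck, Cd3g, Cd3d, Gzma, Cd8a and Cd3e, and only the steps from Nkg7 to Il2rb, from Lck to Cd3g and from Cd3d to Gzma were free of overlap. In males it ran Cd4, Nkg7, Ccl5, Il2rb, Lck, Cd3g, Cd3d, Gzma, Cd8a and Cd3e, with the steps from Nkg7 to Ccl5, from Ccl5 to Il2rb and from Cd3d to Gzma free of overlap. Gzma thus went from the fifth place to the eighth, and Cd3g from the eighth to the sixth. Cd4 made up 53.5% of the summed CPM of the 10 genes in 2-week females and 61.6% in 2-week males, and 61.8% and 66.0% at 65 weeks, so a sum over the set mostly reports Cd4.

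Set against Ptprc, the pan-leukocyte gene, Gzma, Lck and Cd3d were lower at 65 weeks without overlap in either sex, and none of the 10 genes was higher without overlap. These ratios are descriptions without a test, and they carry the error of Ptprc as well. How many of all genes would separate the ages in this way was not counted. Gzma went from 21.2 to 2.55 counts per 1000 Ptprc counts in females and from 21.2 to 1.54 in males. Lck went from 92.4 to 18.5 in females and from 109 to 14.8 in males. For both genes, and for Cd3d, which went from 10.9 to 5.23 and from 10.02 to 5.67, the libraries of the ages did not overlap in either sex. Cd3d and Nkg7 rose in CPM yet were lower per Ptprc count at 65 weeks, Nkg7 at 43.2 and 18.7 in females without overlap and at 45.5 and 35.2 in males with overlap.

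Cd3g was higher by its means, from 4.87 to 8.06 in females and from 4.48 to 8.83 in males, but the libraries overlapped in both sexes, with 65-week males spread over 4.91 to 15.4. Ccl5 went from 17.2 to 27.3 and from 16.3 to 20.3, and Cd8a from 3.63 to 4.55 and from 2.995 to 3.41, all with overlap. Cd3e was at 2.24 and 3.78 in females and at 2.36 and 1.87 in males, so its direction differed between the sexes. Il2rb and Cd4 were lower at 65 weeks by their means, Il2rb at 34.3 and 26.8 in females and 31.96 and 26.6 in males, and Cd4 at 266 and 185 and at 390.5 and 226, again with overlap.

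**Figure D4:**
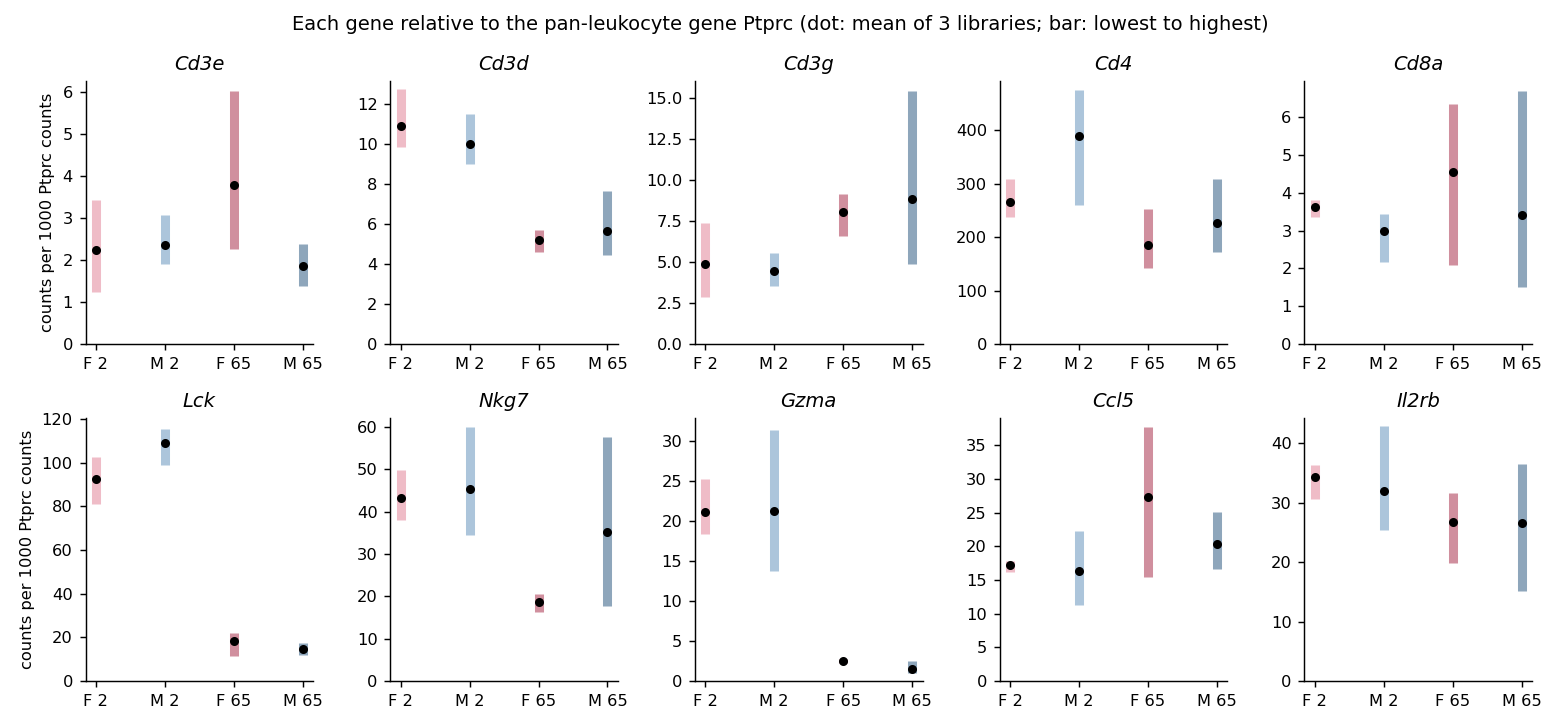
Counts of each gene per 1000 counts of the pan-leukocyte gene Ptprc (linear axis from 0, a separate scale for each gene) in females (F) and males (M) at 2 and 65 weeks. Dots are means of 3 libraries and bars run from the lowest to the highest library. Lck, Gzma and Cd3d are lower at 65 weeks without overlap in both sexes, while Cd3g, Ccl5 and Cd8a have higher means.

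The other genes of these pathways were taken from 10 lists with 102 matched genes. These lists too were chosen with earlier results of these data known, so their counts beside the shares of all genes are a description. In females 61 of 96 tested genes rose and 13 fell, with a median log2 fold change of 1.18, and in males 44 of 91 rose and 14 fell, with a median of 0.97, beside medians of 0.01 over all genes. Of all genes tested 30.2% rose and 29.5% fell in females, and 27.0% rose and 28.5% fell in males. Receptor chains rose with the CD3 genes: Trac, the constant part of the alpha chain, rose by 1.61 on the log2 scale in females (adjusted p = 0.00559) and 2.51 in males (adjusted p = 0.00124). The beta chain genes Trbc1 and Trbc2 rose in both sexes, by 2.39 and 1.96 in females and 2.47 and 1.87 in males, although they are near-identical copies between which counting may have divided reads. The female value of Trbc1 was 1.67 without 65-week replicate 3 (adjusted p = 0.00919). Cd247, the zeta chain shared with NK cell receptors, rose in females (log2 fold change 1.30, SE 0.35, adjusted p = 0.01302), where the call was lost without 2-week replicate 1 or 3 (adjusted p = 0.05704 and 0.0562), and was not called in males (log2 fold change -0.30, SE 0.30, adjusted p = 0.437). Trat1, an adaptor of the receptor, rose in females by 4.38 (adjusted p = 0.000685), by 5.16 without 2-week replicate 1 (adjusted p = 0.00376), and did not pass the filter in males.

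Of 12 surface and costimulation genes 7 rose and 2 fell in females, and 3 rose and 2 fell in males, where 27.0% of all genes rose and 28.5% fell, so the male count is no larger than that background. The female count of 7 was 4 without 2-week replicate 1, 2 or 3 or 65-week replicate 1. Cd2, an adhesion receptor of T and NK cells, rose by 2.79 on the log2 scale in females and 2.81 in males (adjusted p = 1.26e-05 and 0.00418). Male 65-week replicate 3, high in B cell genes, was also the highest in Cd2, which mouse B cells carry too, and the male value was 1.78 without it (adjusted p = 0.000129). Of 8 B cell markers 7 rose in either sex, and their part in the rise of Cd2 was not tested. The other risers in males were Cd6 (2.58) and Cd8b1. The falling genes were Cd226, an adhesion receptor also present on platelets, by 2.61 in females and 3.27 in males (adjusted p = 2.83e-05 and 9.47e-05), and Slamf1, a receptor of lymphocytes and of blood stem cells, by 1.94 and 2.20 (adjusted p = 6.17e-05 and 8.88e-05). Thy1 rose in females (log2 fold change 0.75, SE 0.25, adjusted p = 0.0323), a call lost without 2-week replicate 1, 2 or 3 or 65-week replicate 1 (adjusted p from 0.0512 to 0.137), and was not called in males (log2 fold change 0.38, SE 0.28, adjusted p = 0.279).

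Of 13 signalling genes 5 rose and 4 fell in females, and 5 rose and 3 fell in males. Among all genes 30.2% rose and 29.5% fell in females and 27.0% and 28.5% in males, so these counts lie near that background. Of 10 tested genes of the interleukin 2 and 15 list 2 rose and 2 fell in either sex, no more than that background. Among the signalling genes that rose in females were Lcp2 (0.56), Zap70 (1.27), Txk (1.60) and Themis (4.61), and in males Zap70 (1.36), Skap1 (1.84), Themis (3.79) and Sh2d1a (2.09), all as log2 fold changes. The female call of Txk was lost without 2-week replicate 1 or 2 (adjusted p = 0.0773 and 0.0663), and the value of Themis was 3.98 without 65-week replicate 3 (adjusted p = 0.000912). In males the call of Sh2d1a was lost without 2-week replicate 1 or 2 (adjusted p = 0.0894 and 0.0903), and its value was 2.82 without 2-week replicate 3 (adjusted p = 0.0182). In females Skap1 (1.39, adjusted p = 0.0203) and Sh2d1a (1.79, adjusted p = 0.0209) were called only without 65-week replicate 2. Zap70 is the kinase that binds the phosphorylated CD3 and zeta chains. Lat, the membrane adaptor that Zap70 phosphorylates and that platelets also use, fell by 1.92 in females and 2.60 in males (adjusted p = 9.04e-05 and 5.49e-05). Prkcq, a kinase of T cells and platelets, fell by 1.57 and 2.27 (adjusted p = 5.66e-06 and 9.33e-05), and Fyn, the other Src family kinase of T cells and one used by many cell types, by 0.36 and 1.20 (adjusted p = 0.02105 and 0.00327), with the female call lost without 65-week replicate 1 or 3 (adjusted p = 0.0626 and 0.0645). Ubash3a fell in females by 0.89 and was not called in males (0.03). Grap2 was not called in either sex (0.05 and 0.16). The fall of the megakaryocyte and platelet markers given beside Lck ran with these falls too, and its part in them was not tested.

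Of the transcription factors 8 of 11 tested rose in females and 5 of 10 in males, beside 30.2% and 27.0% of all genes. Bcl11b, which fixes T cell identity, had 6, 7 and 6 counts in 2-week females and 48, 19 and 67 in 65-week females, and 4, 3 and 3 and 41, 33 and 37 in males, and rose by 3.21 and 4.14 on the log2 scale (adjusted p = 0.00198 and 8.75e-05). Zbtb7b, a factor of helper T cells that other leukocytes also use, rose by 1.18 and 1.53, Satb1 by 1.18 and 1.68 and Runx3, a factor of cytotoxic lymphocytes, by 1.07 and 1.35 in females and males. Lef1 fell in both sexes, by 1.77 in females and 1.76 in males (adjusted p = 0.00391 and 0.00132), and its relative Tcf7 was not called (-0.41 and -0.49), but fell without female 65-week replicate 1 (-0.62, adjusted p = 0.0427) and without male 65-week replicate 3 (-0.58, adjusted p = 0.0367).

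Of the cytotoxic effector genes 9 of 11 tested rose in females and 5 of 9 in males, beside 30.2% and 27.0% of all genes, and 1 fell in each sex, Serpinb9, an inhibitor of granzyme B (-0.88 and -1.43 on the log2 scale, adjusted p = 0.000218 and 4.71e-05). In males the risers were Srgn, the granule proteoglycan that myeloid cells also make (1.43), the chemokines Ccl3 (1.71) and Ccl4 (3.77), Prf1 and the granzyme Gzmm (1.56). Without male 2-week replicate 1 or 3 the male count was 3, and the call of Gzmm was lost without any of the male 2-week libraries or 65-week replicate 2 (adjusted p from 0.0989 to 0.117), with a value of 0.80 without the last. Ctsw rose in females (0.91, adjusted p = 0.0146), a call lost without 2-week replicate 1 or 2 (adjusted p = 0.0539 and 0.0663), and was not called in males (0.37, adjusted p = 0.248). Of the NK receptor genes 8 of 12 tested rose in females, 7 of 12 in males and none fell. Ncr1, the receptor that best marks mouse NK cells, was at 41, 27 and 41 counts in 2-week females and 75, 49 and 77 in 65-week females, where it rose (log2 fold change 1.29, SE 0.34, adjusted p = 0.0114, and 0.0543 without 2-week replicate 2), and at 25, 38 and 47 and 28, 55 and 27 counts in males, where it was not called (log2 fold change 0.70, SE 0.44, adjusted p = 0.216). Tyrobp and Hcst, the adaptors of activating receptors, rose by 0.56 and 1.06 in females and by 0.75 and 1.52 in males, Cd244a by 2.02 and 1.46 and Klrk1 by 0.94 and 0.88, but Tyrobp at 296 ± 34.1 CPM in 2-week females is a gene that myeloid cells also use.

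Checkpoint receptors and related genes rose throughout, 7 of 7 tested in females and 6 of 6 in males, beside 30.2% and 27.0% of all genes. Pdcd1, which encodes PD-1, went from 3, 7 and 9 counts to 62, 98 and 75 in females and from 8, 11 and 3 to 13, 32 and 145 in males, with male 65-week replicate 3 again the highest. It rose by 3.98 on the log2 scale in females and 3.81 in males (adjusted p = 8.74e-05 and 0.01002), and by 2.31 in males without that library (adjusted p = 0.0118). Lag3 rose by 1.90 and 1.55, Havcr2, also found on myeloid cells, by 1.89 and 1.78, Tox by 1.68 and 1.03 and the PD-1 ligand gene Cd274 by 2.83 and 2.10. The male call of Tox was lost without 2-week replicate 1, 2 or 3 (adjusted p from 0.0506 to 0.05498). Of 11 chemokine receptor and homing genes 10 rose in females and 8 in males, and S1pr1, a receptor of endothelial cells as well as lymphocytes, fell by 1.13 and 1.74 (adjusted p = 0.000953 and 0.0137), in males by 2.57 without 65-week replicate 3 (adjusted p = 8.68e-06), and it was not called without 65-week replicate 1 (adjusted p = 0.0591). Itgal, the alpha chain of the leukocyte integrin LFA-1, rose by 2.25 and 2.13 in females and males.

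Genes listed for developing thymocytes did not follow, and the part of other cells, such as immature B cells, in their levels was not tested. Ptcra, which encodes the surrogate alpha chain of immature T cells, had 0 or 1 count in every library. Rag1, the recombinase of immature B and T cells, was not called in females (log2 fold change -0.22, SE 0.45, adjusted p = 0.698) and fell in males (log2 fold change -1.78, SE 0.55, adjusted p = 0.0262), and Rag2 likewise (-0.49, adjusted p = 0.239 in females and -2.25, adjusted p = 0.00875 in males). The male call of Rag1 was lost without any of the 2-week libraries or 65-week replicate 1 or 2 (adjusted p from 0.0522 to 0.0801). Without male 65-week replicate 3 Rag1 fell by 2.84, Rag2 by 3.14 and Arpp21 by 6.81 (adjusted p = 8.59e-05, 0.000686 and 0.000213). Cd1d1 fell by 0.84 and 1.06 and Arpp21 by 2.17 and 4.13 on the log2 scale. Themis, a gene of developing and mature T cells, was the only one of the list to rise, as given with the signalling genes.

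**Figure D5:**
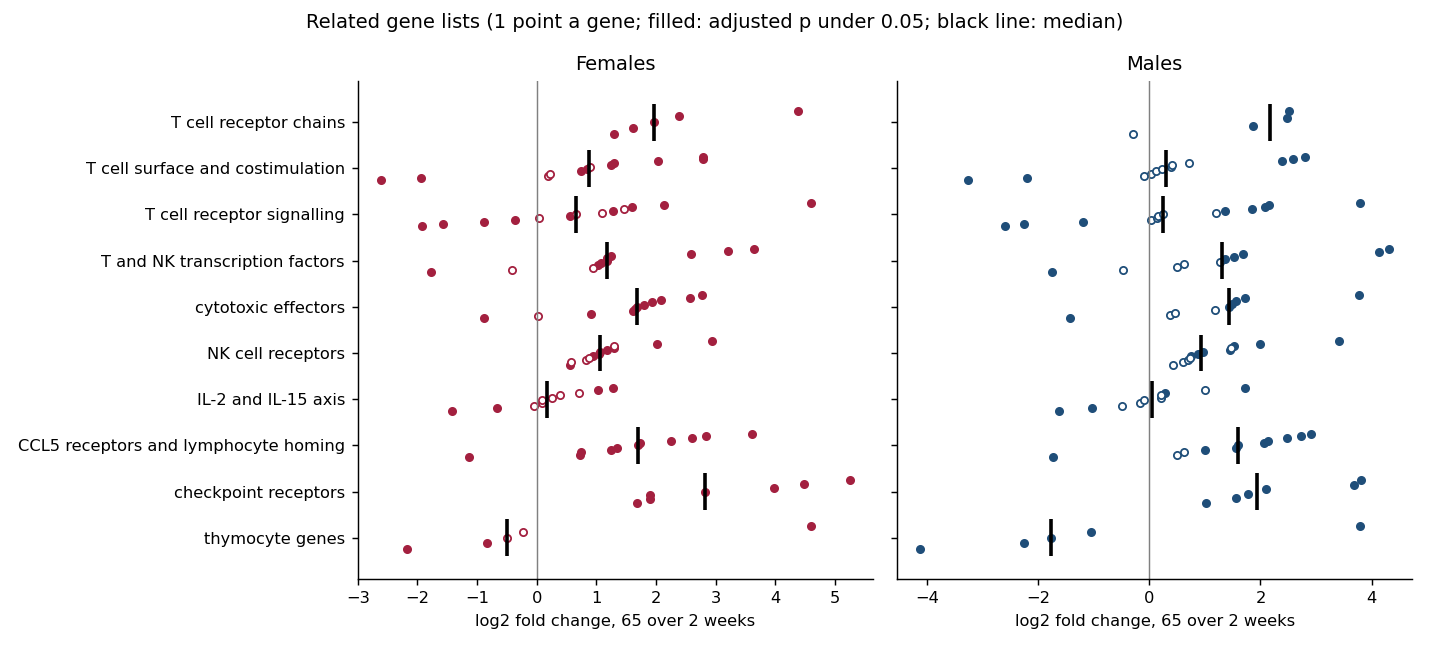
Log2 fold change between ages (65 over 2 weeks, horizontal axis) of the tested genes of 10 related lists in females (left) and males (right), 1 point a gene. Filled points were called by edgeR at an adjusted p under 0.05 and black lines are list medians. Medians lie above 0 in 9 lists in both sexes, and that of the thymocyte genes lies below 0 in both.

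Across the 12 libraries the genes most like Cd3e in log2(CPM + 0.5) among 15796 compared were Igsf9 (Pearson r = 0.957), Tigit (0.955), ENSMUSG00000028269 (0.953), ENSMUSG00000078667 (0.952) and Zkscan14 (0.948). Tigit encodes an inhibitory receptor of T and NK cells, and the IDs without a name had no entry in GENCODE M39. The genes most like Nkg7 were Ptma (0.971), Aldh1a7 (0.970), Tkt (0.961), Hmgn5 (0.961) and Fcnb (0.960). None of these is a T or NK cell gene by name, and Fcnb encodes a ficolin of myeloid cells. The 12 points share 4 groups and the age difference in leukocyte RNA, so these values are a description.

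Within the set, the correlation over the 12 libraries was highest between Ccl5 and Il2rb (r = 0.947) and lowest between Cd4 and Gzma (-0.881). After the group means had been subtracted, the CD3 genes no longer tracked each other, with r = 0.000 between Cd3e and Cd3d, 0.209 between Cd3e and Cd3g and -0.135 between Cd3d and Cd3g over 12 libraries. The counts behind Cd3e and Cd3g were as low as 7 and 21 in a library. Other pairs had a positive value after the subtraction, among them Nkg7 and Gzma (0.782, the highest of all pairs), Cd8a and Ccl5 (0.738) and Cd3g and Lck (0.711). Pooled over the groups, libraries above their group mean in Nkg7 thus tended to be above it in Gzma, although the ages moved these genes apart. Whether this held in each single group was not tested. The lowest values after the subtraction were those of Cd4 and Gzma (-0.681), Cd3d and Cd4 (-0.622) and Cd4 and Nkg7 (-0.540).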

How the data were processed

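RNA-seq was analysed in 12 libraries, 3 in each of 4 groups set by the sex and age in the labels. The deposited file holds counts per gene, not normalised. The study's methods give alignment to GRCm39 with STAR and counting with featureCounts by the authors, whereas the submitters' processing notes name TopHat2, HTSeq and mm9, and this was not resolved. Of 37620 gene IDs 6568 were not in GENCODE M39, from which names, places and exon lengths were taken. Strand use, annotation release and reads mapping to several places are not given in the sources used here. The kit was for total RNA, the label names polyA RNA.

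The test was the quasi-likelihood test of edgeR 4.0.16 in R 4.3.3, on genes with a minimum count of 10, with TMM factors and no covariate, and p-values were adjusted by Benjamini-Hochberg over every gene tested, with calls at 0.05. Ages were compared in 6 libraries of a sex, sexes in 6 libraries of an age, and the interaction in 12. The code was tested on simulated counts. Replicates of every group differed by more than sampling noise. Alternatives were DESeq2 1.42.0, RLE and total scaling, no filter, a minimum count of 50, 1 model of 12 libraries, a replicate block and each library left out, which for the related lists was added after seeing the data.

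The 10 genes and the related lists were chosen with earlier results of these data known. From each list up to 4 genes of highest mean CPM were named. Any gene a count of 5 or fewer refers to was named too, except in the signalling and interleukin lists. Other list genes were named after their values were seen. The 5 genes of highest Pearson r were named for Cd3e and Nkg7. Trdc, Tcrg-C1, Tcrg-C2 and Tcrg-C4 had no match. Promoter windows are RefSeq's and were read for 7 of the 10 genes, not all of which are shown. Intervals cover the spread between libraries, and counts without molecular identifiers are not independent molecules. Values of a few genes of the related lists are not reported here, although these genes are counted in the lists.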

Additional observations from a re-analysis of the deposited data

How the results depend on the processing

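Counts of T and NK cell genes called kept their direction and stayed within 1.5 times under every alternative that kept all libraries: 7 to 8 higher and 1 lower in females and 6 to 8 higher and 2 lower in males between ages, the lowest with a minimum count of 50, and 0 in the sex comparisons and the interaction. With 1 library left out, 7 to 8 genes were higher and 1 lower in females, and 7 to 8 higher and 1 to 2 lower in males, where Lck lost its call. The replicate numbers did not pair the libraries (correlations of same-numbered deviations from -0.739 to 0.453), and with the number as a block 8 genes were higher in either sex, 1 lower in females and 2 in males, none was called between sexes or in the interaction, and genes called over the whole table went from 9030 to 8269 in females and from 8298 to 7593 in males. The log2 fold change of Cd3g between sexes at 65 weeks turned from -0.00018 to 0.0010 with DESeq2, 0.0021 with RLE, 0.045 with totals only, 0.0030 without a filter, 0.0087 with a minimum count of 50 and 0.015 with all 12 libraries in 1 model. Leaving out 1 library turned the sign of uncalled values, which ranged at 2 weeks from -0.57 to 0.17 for Cd3e and -0.11 to 0.016 for Lck, at 65 weeks from -0.89 to 0.34 for Cd3g, -0.18 to 0.39 for Cd4 and -0.42 to 0.062 for Il2rb, and in the interaction from -0.51 to 0.68 for Cd3g, -0.48 to 0.10 for Cd4, -0.88 to 0.22 for Cd8a, -0.58 to 0.040 for Ccl5 and -0.016 to 0.44 for Il2rb. The cause of these changes was not tested. Counts as low as 7 in a library limit the precision of Cd3e.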
